A study of Mus musculus with 124 samples.

Results

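The genes described here are the hepatic conjugation enzymes of 3 families, the UDP-glucuronosyltransferases (UGT), the cytosolic sulfotransferases (SULT) and the glutathione S-transferases (GST), in the liver of mice that were sleep-deprived or left undisturbed. Members were taken by gene name, as every liver gene whose symbol begins with Ugt1, Ugt2 or Ugt3, with Sult and a digit, or with Gst and 1 of the letters a, k, m, o, p and t. The rule used no measured value and found 44 of the 13338 named liver genes, of which 17 are UGT, 7 SULT and 20 GST genes, 1 of the last (Gstm2-ps1) a processed pseudogene.

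RNA was sequenced from the liver of 62 mice aged 11 to 12 weeks, under a 12 h light and 12 h dark cycle with food always available, with 1 library per mouse. Controls, labelled NSD, were undisturbed mice killed at zeitgeber time (ZT, hours after lights on) 0 (n = 8), 3 (n = 3), 6 (n = 5), 12 (n = 5) or 18 (n = 5). The 36 sleep-deprived mice (SD) were prevented from sleeping over 6 h by gentle handling, starting at lights on (hours 24 to 30 of the study clock), and were killed in groups of 3. T27 lies within the deprivation and T30 at its end, and the later groups were taken every 6 h from T36 to T78 and at T192 and T198. Each SD group was compared with the controls of the same time of day. Strain and sex are not given in the sources used here.

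Conjugation is the step of hepatic metabolism that couples a drug, hormone, bile acid or bilirubin to a polar group, so that it can leave the cell in bile or blood. UGT enzymes sit in the membrane of the endoplasmic reticulum and transfer glucuronic acid from UDP-glucuronic acid. SULT enzymes work in the cytosol and transfer sulfate from the donor PAPS. GST enzymes join glutathione to electrophilic compounds, lipid peroxidation products among them.

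Liver identity was checked on fixed marker lists: all 7 hepatocyte markers were measured, and 0 of 7 exocrine pancreas markers were in the table. The summed CPM (read counts scaled to library size) of the hepatocyte list ran from 97730 to 114100 in ZT6 controls and from 101100 to 112100 at T30. The list of periportal hepatocytes, the cells around the portal vein, had 1 of 8 lower at T30, and no list of another cell type had a member called. The 5 measured of 6 bile duct (cholangiocyte) markers all had estimates below 0 at T30, with a median of -0.58. They summed to 37.57 to 40.93 CPM there and to 48.76 to 62.47 in ZT6 controls, and at T36 to 49.32 to 62.44 beside 35.73 to 43.58 at ZT12. The single measured of 5 adipocyte markers, Cidec, stood at 1.13 to 2.73 CPM at T30 and 0.438 to 0.749 at ZT6. The part of these cells in the results at T30 was not tested. Values are log2 CPM as deposited, without read counts, so the depth behind each value is unknown. In whole liver, fewer cells of a type and less RNA per cell cannot be told apart.

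Closely related genes limit what single symbols mean. The 7 Ugt1a genes are alternative first exons joined to a common end, and Ugt1a10 shares 1311 exonic bases, 57.8% of its exons, with Ugt1a9. Of the 50-base windows in the transcripts of Ugt2b38, 37.4% also occur in another gene, chiefly Ugt2b5 (34.1%), and 11.5% occur in Ugt2b37. The share found in any other gene is 41.7% for Ugt2b5 itself and 18.3% for Ugt2b37. It is 90.5% for Gsta1, 54.3% for Gstp2, 49.8% for Gsta2, 46.9% for Gstm2-ps1, 33.7% for Gstp1, 28.8% for Gstm3 and 18.9% for Gstm1, but 0% for Gstm4 and Sult2a7, 0.3% for Gsta3, 0.4% for Gstt2 and 0.7% for Sult1c2. No source used here says how reads from shared stretches were assigned, so the values of the Ugt1a genes, Gsta1, Gsta2, Gstp1, Gstp2, Gstm1, Gstm3, Gstm2-ps1, Ugt2b5, Ugt2b37 and Ugt2b38 are uncertain to that extent.

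The strongest responses came from a pair of genes in the Ugt2 cluster, and their promoters are shown first. This pair rose together, while a closely related gene of the cluster, Ugt2b5, did not pass the test. The cluster lies on chromosome 5 (GRCm38), and its measured genes follow each other in the order Ugt2b34, Ugt2b1, Ugt2b35, Ugt2b36, Ugt2b5, Ugt2b37, Ugt2a3, Ugt2b38. Ugt2b37 spans 87240493 to 87254804 and Ugt2b38 spans 87409942 to 87424203, both on the minus strand, with Ugt2a3 between them. Ugt2b5 spans 87124960 to 87140318 on the same strand. The lines below give the 250 bases before each RefSeq start (GRCm38.p6), 5′ to 3′ on the gene's strand, with capitals for the matches of the motifs searched.
Ugt2b37 (chr5:87254789-87255038, minus strand): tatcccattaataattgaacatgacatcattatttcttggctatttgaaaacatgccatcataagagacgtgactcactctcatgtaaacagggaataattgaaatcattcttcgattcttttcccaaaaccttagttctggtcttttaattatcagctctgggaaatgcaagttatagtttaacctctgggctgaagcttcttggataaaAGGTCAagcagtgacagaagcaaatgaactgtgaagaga
Ugt2b38 (chr5:87424204-87424453, minus strand): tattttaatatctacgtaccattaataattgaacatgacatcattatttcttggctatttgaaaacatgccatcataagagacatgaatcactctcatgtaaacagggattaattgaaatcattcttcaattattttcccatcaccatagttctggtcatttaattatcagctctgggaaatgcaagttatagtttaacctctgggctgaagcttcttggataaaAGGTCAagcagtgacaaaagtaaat
Ugt2b5 (chr5:87140341-87140590, minus strand): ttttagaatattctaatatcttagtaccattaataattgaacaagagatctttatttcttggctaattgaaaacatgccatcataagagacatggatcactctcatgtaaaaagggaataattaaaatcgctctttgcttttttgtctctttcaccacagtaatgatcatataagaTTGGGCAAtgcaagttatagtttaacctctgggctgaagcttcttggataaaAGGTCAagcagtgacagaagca

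The promoters of Ugt2b37 and Ugt2b38 were identical at 85.2% of alignment columns, and that of Ugt2b5 was identical to Ugt2b38 at 81.5% and to Ugt2b37 at 73.0%. Other pairs of Ugt2 promoters lay between 47.2% and 60.4%. Gap columns counted as not identical, those at the window ends included. The windows end at different RefSeq starts, so each share also reflects that offset. For Ugt2b37 and Ugt2b38, 225 of 264 columns were identical. For Ugt2b5 it was 212 of 260 columns with Ugt2b38 and 200 of 274 with Ugt2b37. Each of the 3 printed promoters holds AGGTCA, the core sequence bound by many nuclear receptors, starting 39 bases before the RefSeq start in Ugt2b37, 25 in Ugt2b38 and 22 in Ugt2b5. On either strand this motif occurred in 14.02% of 32851 promoters of that length and in 10 of the 38 members with a promoter in the table. These members have 46 promoters, and a member counted if any of its promoters matched. Its share is therefore not in the same unit as the share of all promoters, here and for the other motifs. Ugt2b5 also holds, on the other strand, TTGCNNAA, a sequence of the kind bound by C/EBP proteins. It was found on either strand in 9.56% of promoters. The circadian E-box CACGTG (6.02% of promoters) was in 0 of these 38, and the D-box TTATGTAA (0.82%) was in Ugt2b1 alone. A match is a description of letters and not a binding site.

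In undisturbed liver the families covered more than 3 orders of magnitude in level. Per kb of exon, the highest mean control levels were those of the Mu-class enzyme Gstm1 (904.3 CPM per kb), Ugt2b5 (468.7), the Pi-class enzyme Gstp1 (462.3), the Alpha-class enzyme Gsta3 (396.2), Ugt2b1 (362.9) and Ugt2b36 (331.6). The leading sulfotransferases were the bile acid enzyme Sult2a8 (272.2 CPM per kb) and the phenol enzyme Sult1a1 (177.9). Ugt3a2 stood at 114.5, Gstt1 at 110.9 and the bilirubin enzyme Ugt1a1 at 71.54 CPM per kb. Further leaders of their subfamilies were Gstm3 (59.72), Gstk1 (55.28), Sult1d1 (50.79), Gsta4 (44.98) and Gsto1 (38.12). Lower ones were Ugt3a1 (24.82), Ugt1a9 (24.45), Gstt2 (12.77), Gstp3 (12.37) and Sult5a1 (2.949). Ugt2b38 averaged 13.23, Ugt2b37 1.558, Sult2a7 0.838 and Ugt1a10 0.3869 CPM per kb, so that several of the genes that moved most were low in control liver.

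In the fit of all 62 libraries, most of the conjugation enzymes varied over the day in controls. By an F test over the 5 control times in limma, with Benjamini-Hochberg adjustment over all named genes, 27 of 44 members (61.4%) were called at an adjusted p under 0.05, against 47.1% of all genes. The called members were 11 of 17 UGT, 6 of 7 SULT and 10 of 20 GST genes. Called with a range of control means over 2-fold were 8 of the 44 members, against 9.27% of all genes. Among called genes alone these were 8 of 27 members and 1236 of 6281 genes. Of the 27, none peaked at ZT0, 5 peaked at ZT3, 9 at ZT6, 7 at ZT12 and 6 at ZT18. Of the 6281 genes called among all 13338, 951 peaked at ZT0, 734 at ZT3, 1309 at ZT6, 1877 at ZT12 and 1410 at ZT18. These are 7.13%, 5.5%, 9.81%, 14.1% and 10.6% of all genes, not of the called genes.

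The widest daily courses belonged to the same Ugt2b pair. Ugt2b37 lay between -0.86 and 0.58 log2 CPM in the 5 ZT6 controls and between 1.34 and 3.39 in the 5 ZT18 controls, with no overlap. The range of its fitted means was 2.39 on the log2 scale, or 5.24-fold (adjusted p = 3.70e-04, limma). Ugt2b38 was likewise lowest at ZT6 (2.79 to 4.31) and highest at ZT18 (4.13 to 6.27), a range of 1.89 (adjusted p = 5.40e-04), and here the times overlapped. Ugt1a10, at a low level, had the same lowest and highest times, with a range of 1.61 (adjusted p = 4.41e-04).

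Another group of enzymes peaked when the Ugt2b pair was lowest. Gstt2, a Theta-class transferase, rose from 4.07 to 5.18 at ZT0 to 6.36 to 6.90 log2 CPM at ZT6 without overlap, a range of 1.64 or 3.11-fold (adjusted p = 6.96e-11). Sult1c2 lay between 2.77 and 3.91 log2 CPM at ZT6 and between 1.36 and 2.08 at ZT18, again without overlap (range 1.47, adjusted p = 5.40e-07). Gstm4, a Mu-class transferase, stood at 5.90 to 6.37 at ZT6 and 4.91 to 5.33 at ZT12 (range 1.05, adjusted p = 1.04e-08). Sult2a7, of the hydroxysteroid sulfotransferases, also peaked at ZT6 and was lowest at ZT18 (range 1.12, adjusted p = 0.0347). That call was lost with the 26 controls alone and with batch 1 controls alone, and when 1 of 6 single libraries was left out. Gstp2 had its highest mean at ZT18 and its lowest at ZT3 (range 1.26, adjusted p = 0.0120).

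Abundant enzymes varied less. Gsta3 was higher at ZT18 (10.99 to 11.25 log2 CPM) than at ZT6 (10.41 to 10.63) in every library, a range of 0.63 or 1.55-fold (adjusted p = 5.14e-09). Ugt2b1 was highest at ZT12 and lowest at ZT6 (range 0.69, adjusted p = 8.19e-04). Sult1a1 (range 0.41) and Sult1d1 (range 0.85), the latter an enzyme of catecholamine sulfation in rodents, were lowest at ZT0. Gstm1, Ugt2b5 and Gstp1, the most abundant per kb, did not pass the test (adjusted p 0.561, 0.486 and 0.157).

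**Figure D1:**
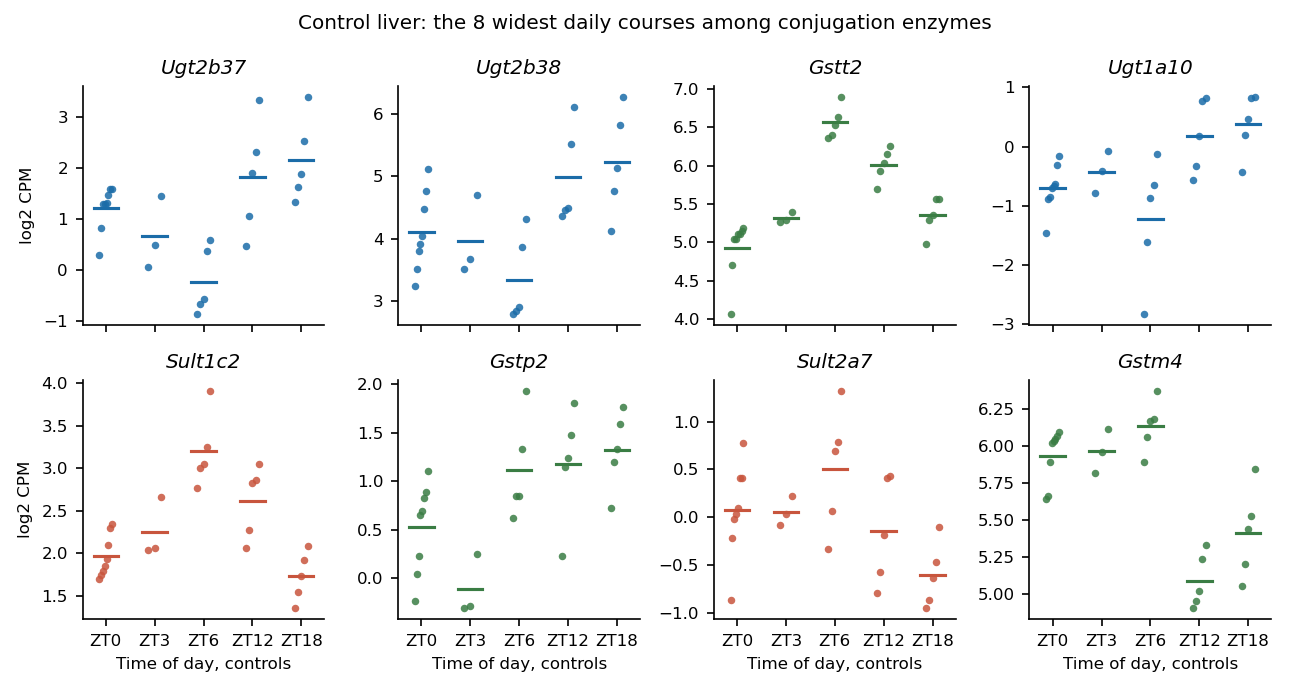
Log2 CPM (y axis) in each control library by time of day (x axis) for the 8 called members with the widest range of control means. Points are libraries, bars are group means, and colours mark UGT (blue), SULT (red) and GST (green). Ugt2b37, Ugt2b38 and Ugt1a10 are lowest at ZT6, where Gstt2, Sult1c2, Sult2a7 and Gstm4 are highest.

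After 3 h of deprivation (T27 against ZT3) 0 of the 44 members were called by limma, where 1.03% of all genes were, and 1 had an unadjusted p under 0.05. It was Ugt2b35, another member of the chromosome 5 cluster. Its deprived libraries held 7.67, 7.88 and 8.05 log2 CPM and the controls 8.27, 8.40 and 8.41. The 2 groups did not overlap, and the fitted change was -0.50 ± 0.15 (SE), with an adjusted p of 0.0874. Quantile normalisation made it the only call at this time. Estimates ranged from -0.57 to 0.95, the extremes being Sult5a1 and Gsta1.

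When the 6 h of deprivation ended (T30 against ZT6), 11 of 44 members were called, 3 higher and 8 lower. That is 25% of the members, against 12.8% of all genes (6.34% higher and 6.48% lower). By family 4 of 17 UGT genes, 2 of 7 SULT genes and 5 of 20 GST genes were called, and every called SULT and GST gene was lower. Estimates below 0 were found for 31 of the 44 members, and only Gstk1 and Gstp2 of the 20 GST genes had one above 0. The median change was -0.22 over the members, -0.39 over GST, -0.16 over SULT and -0.02 over UGT genes, beside 0.0025 over all genes. The deprived libraries lay above all controls for 2 members and below all controls for 12, where 10.2% and 9.41% of all genes did so.

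**Figure D2:**
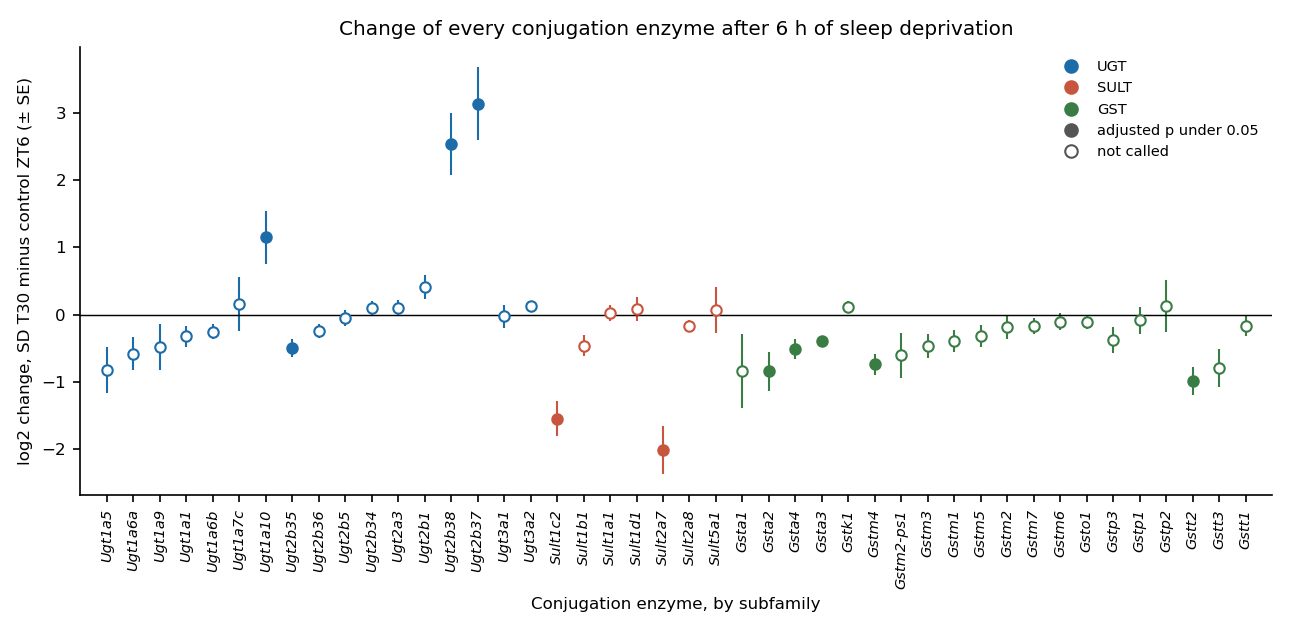
Log2 change at T30 against ZT6 controls (y axis, bars are SE of the fit) for each of the 44 members (x axis), grouped by subfamily and coloured by family. Filled points passed an adjusted p of 0.05: Ugt2b37, Ugt2b38 and Ugt1a10 lie above 0, and 8 members lie below.

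The Ugt2b pair showed the largest rise. Ugt2b37 was at 1.55, 2.70 and 3.48 log2 CPM in the deprived libraries and at -0.86, -0.66, -0.58, 0.38 and 0.58 in the controls. Every deprived library was above every control, and the fitted change was 3.14 ± 0.54 (SE), 8.80-fold (adjusted p = 9.71e-05). For Ugt2b38 the deprived libraries held 5.09, 5.37 and 6.50 and the controls 2.79, 2.84, 2.90, 3.86 and 4.31 log2 CPM. These did not overlap either, and the change was 2.54 ± 0.46 or 5.81-fold (adjusted p = 1.65e-04). In both genes the 2 batch 2 controls were the highest, while all T30 libraries are of batch 1. Against the 3 batch 1 controls alone the changes were 3.28 and 2.82 (adjusted p = 2.94e-04 and 1.94e-04).

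Ugt2b5 shares more transcript windows with Ugt2b38 than with any other gene (34.8% of its own). It held 9.50, 9.56 and 9.88 log2 CPM at T30. Its controls held 9.53, 9.76, 9.79, 9.82 and 9.89, so the groups overlapped and the change was -0.05 (adjusted p = 0.850). Ugt2a3, which lies between the pair, changed by 0.11 (adjusted p = 0.567), and Ugt2b1 by 0.42 (adjusted p = 0.109). Within the cluster the log2 changes at T30 were thus, in chromosome order, 0.10 for Ugt2b34, 0.42 for Ugt2b1, -0.50 for Ugt2b35, -0.25 for Ugt2b36, -0.05 for Ugt2b5, 3.14 for Ugt2b37, 0.11 for Ugt2a3 and 2.54 for Ugt2b38.

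Ugt2b35 was lower at T30, with 7.41, 7.79 and 7.92 log2 CPM against 7.95, 8.14, 8.27, 8.34 and 8.48. The groups were adjacent without overlap, and the change was -0.50 ± 0.13 (adjusted p = 0.00977). Without the lowest deprived library (replicate T30S4) it was -0.35 (adjusted p = 0.123). Ugt1a10 was called higher, 1.15 ± 0.40 (adjusted p = 0.0468). Its deprived libraries (-0.47, -0.41 and -0.28) lay within the range of the controls (-2.83 to -0.13), and the call was lost without any 1 of 6 libraries. Without the control T6N3, the lowest, the change was 0.69 (adjusted p = 0.261), and the call also failed without covariates, after centring, on the log2(CPM + 1) scale and with the 2 groups alone. The other 6 Ugt1 genes did not pass, Ugt1a1 among them with a change of -0.32 (adjusted p = 0.169).

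In the sulfotransferases, the called genes were scarce ones. Sult2a7 was at -1.97, -1.69 and -0.49 log2 CPM after deprivation and at -0.33, 0.07, 0.70, 0.79 and 1.32 in controls. No libraries overlapped, and the change was -2.01 ± 0.36, a level 4.03-fold lower (adjusted p = 1.65e-04). At values this low the log2(CPM + 1) scale gave -0.88, still called. Sult1c2 was at 1.36, 1.83 and 1.96 log2 CPM against 2.77, 3.01, 3.06, 3.26 and 3.91. Here too the groups stood apart, by -1.54 ± 0.26 or 2.92-fold (adjusted p = 6.72e-05). Sult2a8, the most abundant sulfotransferase, held 9.70, 9.71 and 9.99 against 9.81 to 10.08, a change of -0.16 (adjusted p = 0.242). Sult1a1 changed by 0.03 (adjusted p = 0.911). Sult1b1, which sulfates phenols and thyroid hormone, missed the threshold with -0.46 (adjusted p = 0.0515).

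Among the glutathione transferases the Alpha class held 3 of the 5 calls. Gsta3, the class's most abundant member, was at 10.04, 10.11 and 10.12 log2 CPM after deprivation and at 10.41, 10.43, 10.52, 10.57 and 10.63 in controls. This gap was small but free of overlap, -0.40 ± 0.09 or 1.32-fold lower (adjusted p = 0.00142). Gsta4, which conjugates the lipid peroxidation product 4-hydroxynonenal, was at 5.20, 5.40 and 5.45 against 5.67, 5.80, 5.82, 5.88 and 6.09, a change of -0.51 ± 0.15 (adjusted p = 0.0216). Without T30S1, T30S3 or the control T6N3 its adjusted p was 0.0687, 0.0885 or 0.0785. Gsta2 was at 3.79, 4.01 and 4.23 against 4.66, 4.73, 4.82, 5.09 and 5.50, a change of -0.84 ± 0.29 (adjusted p = 0.0463). That call was lost without any 1 of 7 of the 8 libraries, J76N1 being the exception, with an adjusted p of 0.191 without T6N3.

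In the Theta and Mu classes 1 gene each was called. Gstt2 was at 5.35, 5.43 and 6.00 log2 CPM against 6.36, 6.40, 6.53, 6.64 and 6.90, with no overlap and a change of -0.98 ± 0.21 or 1.98-fold (adjusted p = 0.00139). Gstm4 was at 5.17, 5.35 and 5.64 against 5.90, 6.06, 6.17, 6.18 and 6.37, again apart, with -0.74 ± 0.15 or 1.67-fold (adjusted p = 9.17e-04). Gstt3 had a change of -0.79 and an adjusted p of 0.0505. The other 7 Mu-class members had changes from -0.60 to -0.10, Gstm1 among them with -0.40 (adjusted p = 0.0995), and its control T6N3 stood at 11.17 where the other ZT6 controls lay between 10.20 and 10.44 log2 CPM. Gstk1, Gsto1 and Gstp1 had changes of 0.11, -0.11 and -0.09 and did not pass.

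**Figure D3:**
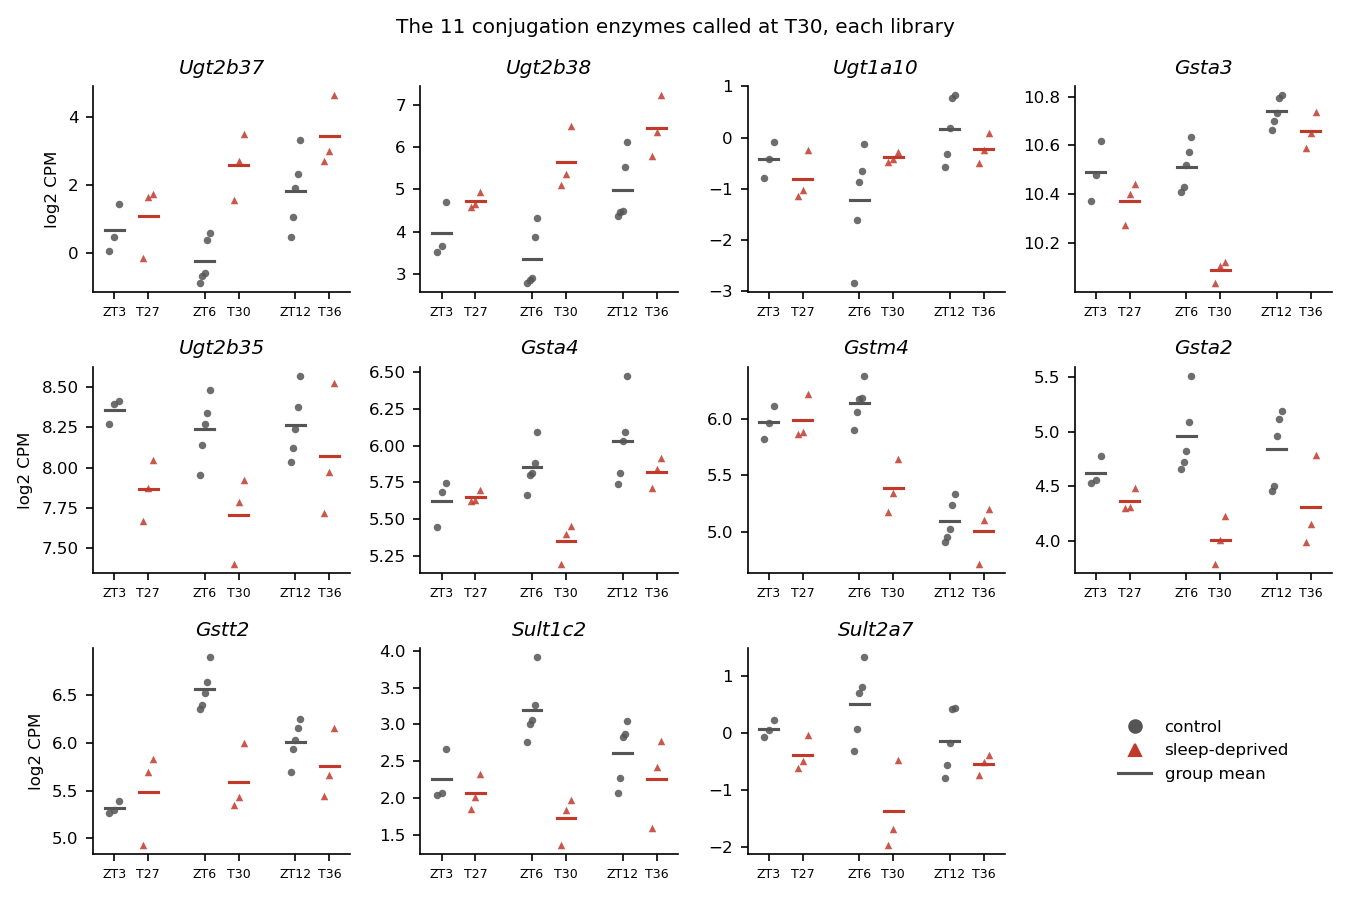
Log2 CPM (y axis) of each library for the 11 members called at T30, in controls (grey circles) and sleep-deprived mice (red triangles) at the first 3 deprived times and their matching ZT (x axis). Bars are group means. The T30 libraries lie outside the ZT6 range for every gene but Ugt1a10.

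The promoter of Gsta3 is shown because the antioxidant response element, the sequence through which the regulator NRF2 acts on many transferase genes, has its core TGACNNNGC there. The line gives the 250 bases before the RefSeq start (GRCm38.p6), with the motif matches in capitals.
Gsta3 (chr1:21240335-21240584, plus strand): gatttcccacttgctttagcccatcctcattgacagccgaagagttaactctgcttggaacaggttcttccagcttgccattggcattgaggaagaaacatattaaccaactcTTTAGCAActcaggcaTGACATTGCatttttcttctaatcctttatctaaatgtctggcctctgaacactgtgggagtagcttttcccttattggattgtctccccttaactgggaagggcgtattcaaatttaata
This core starts 121 bases before the start and follows a match of TTGCNNAA on the other strand, 137 bases before it. It occurred in 10.16% of all promoters and in 3 of the 38 members searched, which were Gsta3, Gstm5 and Gstm7. Of these only Gsta3 was called at T30. Gsta2 and Gstm4, also called lower there, hold no such core in the promoters searched. A link between the motif and the change was not tested.

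Genes that supply or follow conjugation were taken from fixed lists. In the list for the cofactors of glucuronidation and sulfation, 2 of 12 genes were higher and 2 lower at T30, where 6.34% of all genes were higher and 6.48% lower. The list's median change was -0.06, beside 0.0025 over all genes. Papss2, which makes the sulfate donor PAPS, had a log2 change of -1.01 (adjusted p = 0.00116), and Slc35b2, which carries PAPS into the Golgi, had -0.50 (adjusted p = 0.00200). Bpnt1, which breaks down the product of sulfation, rose by 0.40 (adjusted p = 9.79e-04), and Slc35b1, a nucleotide carrier of the endoplasmic reticulum, rose by 0.64 (adjusted p = 0.00983). Slc35d1, a carrier of UDP-glucuronic acid, was the list's single call at T27, -0.39 (adjusted p = 0.0295).

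Of 10 measured genes of glutathione synthesis and recycling, 2 were lower at T30 and none higher, with a median of -0.03, where 6.48% of all genes were lower and 12.8% were called either way. The same shares apply to the lists that follow. The glutathione genes called were Gclc and Gclm, the subunits of the first enzyme of glutathione synthesis, with -0.58 (adjusted p = 0.00477) and -0.22 (adjusted p = 0.0436). With Nqo1 (-0.72, adjusted p = 0.0361) they were also the 3 of 9 NRF2 targets called, all lower, in a list with a median of -0.31. The conjugate exporters had 2 of 8 lower, the canalicular pump Abcc2 (-0.70, adjusted p = 0.00216) and the drug pump Abcb1a (-1.83, adjusted p = 1.65e-04). Among other conjugating enzymes, the methyltransferase Nnmt was higher (1.15, adjusted p = 0.00714). Inmt, a further methyltransferase, was lower (-1.14, adjusted p = 8.95e-05). Among 4 deconjugating enzymes the arylsulfatase Arsa was lower (-0.44, adjusted p = 0.00715). Among xenobiotic receptors and regulators, Nfe2l2, which encodes NRF2, had -0.43 (adjusted p = 0.0517) and Nr1i3, the receptor CAR, -0.77 (adjusted p = 0.0540), and neither passed.

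At T36, 6 h after the deprivation, 2 of 44 members were called against ZT12, where 1.69% of all genes were. Both were the Ugt2b genes. Ugt2b38 held 5.78, 6.36 and 7.22 log2 CPM in deprived mice and 4.36, 4.46, 4.50, 5.52 and 6.11 in controls, a change of 1.71 ± 0.46 (adjusted p = 0.0379). Ugt2b37 held 2.69, 2.99 and 4.63 against 0.46, 1.05, 1.90, 2.31 and 3.33, a change of 1.99 ± 0.55 (adjusted p = 0.0433). The deprived libraries were high but overlapped the controls in both genes. Without the highest of them (T36S2) the changes were 1.27 and 1.30, with adjusted p of 0.262 and 0.338. Both calls also failed with robust variances and with the 2 groups fitted alone, and that of Ugt2b37 without covariates and after quantile normalisation.

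The single-library losses at T36 were not limited to that mouse. Ugt2b38 lost its call without any 1 of 4 libraries, T36S2 or the controls T12N1, T12N2 or T12N4, with adjusted p from 0.0698 to 0.262. Ugt2b37 lost it without any 1 of 5, T36S1, T36S2, T12N1, T12N2 or T12N6. The remaining 42 members, with the 9 others called at T30, did not pass at T36. Gsta3 had a change of -0.05, Gstm4 of -0.07, Gstt2 of -0.27, Sult1c2 of -0.43 and Sult2a7 of -0.55. Of the pathway genes Inmt alone was called, -0.78 (adjusted p = 0.0240).

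Whether the change itself differed between T36 and T30 was tested as an interaction, which was called for 2 of 44 members and for 8.28% of all genes. The change of Gstm4 was 0.67 ± 0.21 less negative at T36 than at T30 (adjusted p = 0.0391), and that of Sult1c2 1.11 ± 0.35 less negative (adjusted p = 0.0394). The first call was lost without any 1 of 10 of the 16 libraries involved and the second without any 1 of 7, with adjusted p up to 0.145 and 0.146. For Ugt2b37 and Ugt2b38 the difference was -1.15 and -0.83 and did not pass (adjusted p 0.369 and 0.460).

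From T42 to T198 limma called 0 of the 44 members at each of the 9 times. Of all genes 0.015% were called at T48 and 0% at the other 8 times. Between 0 (T60) and 11 (T42) members had an unadjusted p under 0.05. Ugt1a10 had an estimate of 1.48 at T54 (adjusted p = 0.246), and at T66 Ugt2b38 had -1.16 (adjusted p = 0.617). At T198 the deprived libraries of Ugt2b38 (4.40, 4.88 and 4.91 log2 CPM) lay above all ZT6 controls, with an estimate of 1.07 (adjusted p = 0.999). All T60, T66, T192 and T198 libraries are of batch 2. An F test over all 12 deprived times called 10 members, against 6.97% of all genes: Ugt2b35, Ugt2b37, Ugt2b38, Sult1c2, Sult2a7, Sult2a8, Gsta3, Gsta4, Gstm3 and Gstm4.

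**Figure D4:**
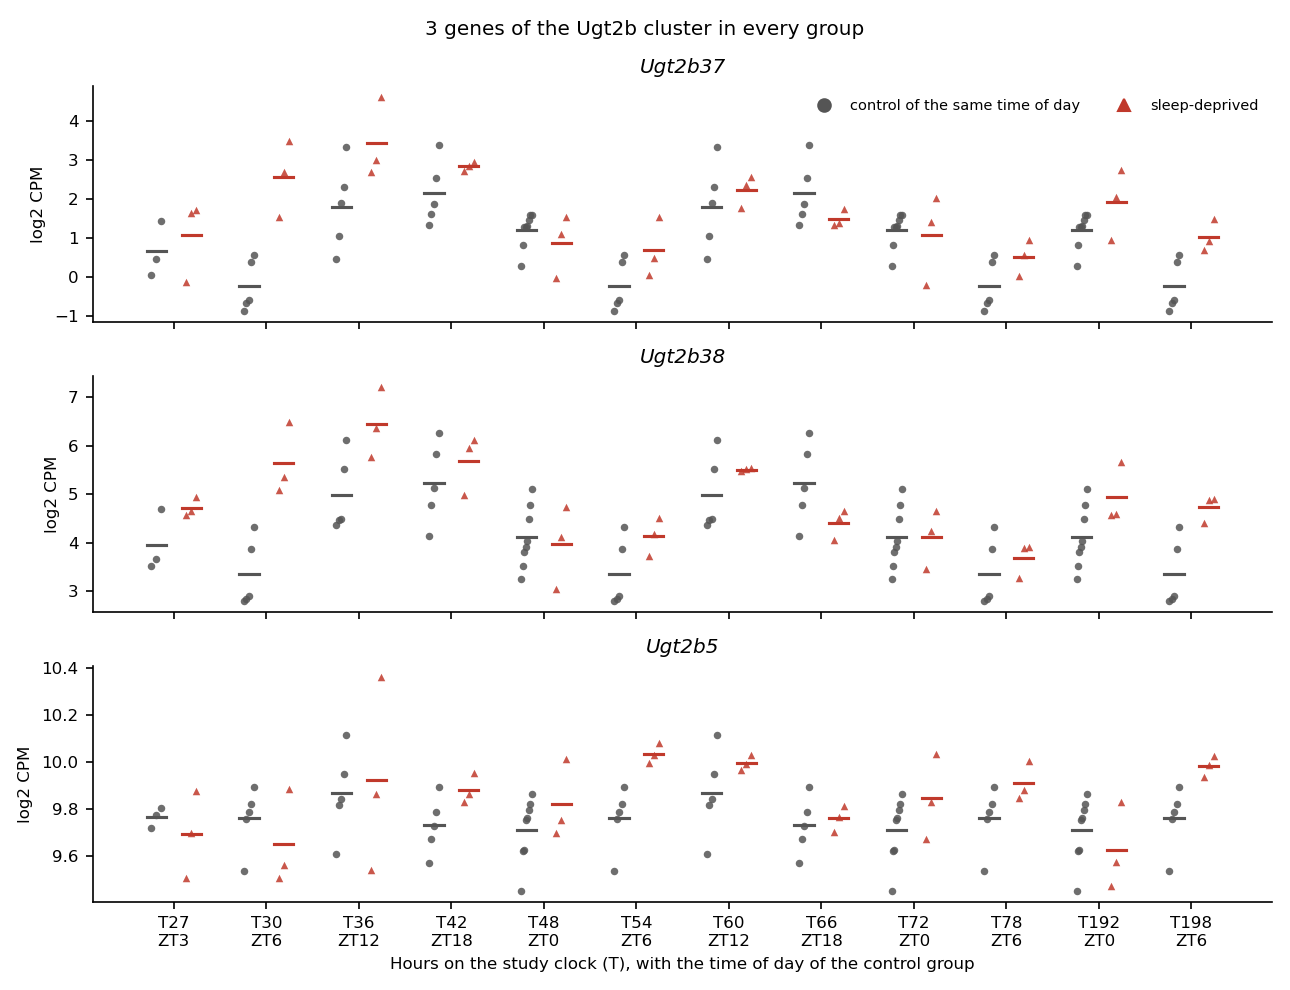
Log2 CPM (y axis) of Ugt2b37, Ugt2b38 and Ugt2b5 in every deprived group (red triangles) beside the controls of the same time of day (grey circles), along the study clock (x axis). Bars are group means. The deprived libraries of the upper 2 genes stand above their controls at T30, and those of Ugt2b5 overlap them.

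**Figure D5:**
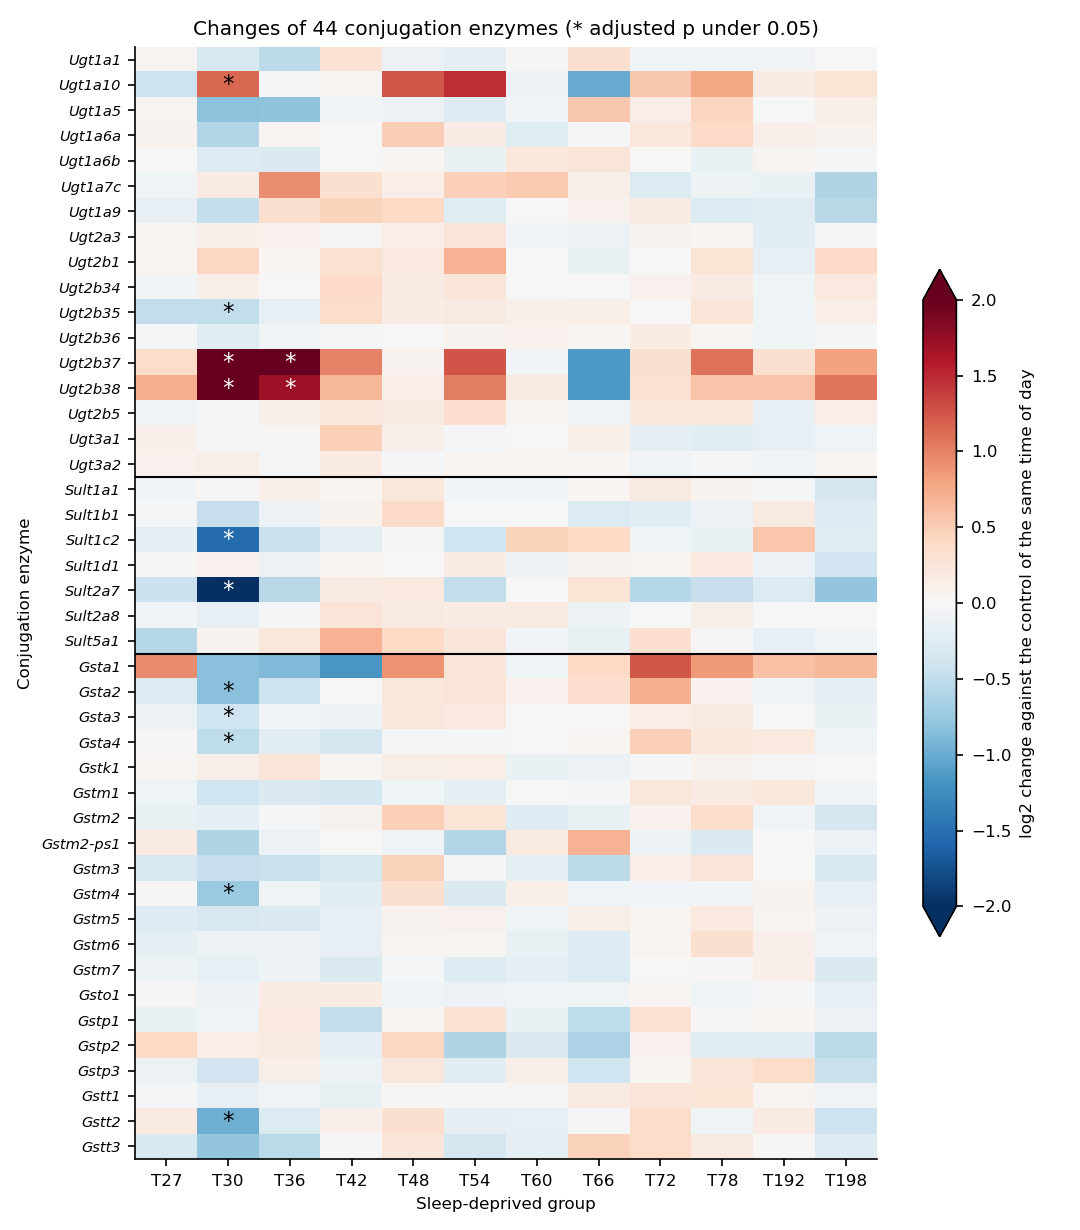
Log2 change of the 44 members (rows, by family) at the 12 deprived times (columns) against controls of the same time of day, with the colour scale limited to 2 in either direction and asterisks at an adjusted p under 0.05. The asterisks fall at T30 (11 members) and T36 (2 members).

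Summed over a family, the level in CPM is set by the abundant genes. The 20 GST genes summed to 3519 to 3876 CPM in the T30 libraries and 4152 to 5380 in the ZT6 controls, without overlap. The UGT sum was 3802 to 4536 at T30 and 3849 to 4528 at ZT6, and the groups overlapped. The SULT sum was 1241 to 1432 against 1313 to 1512, again with overlap. No test was made of these sums.

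In the cortex of the same mice, measured in a table normalised separately, 16 of the 44 members were listed. At T27 limma called 0 of 16, where 16.4% of cortex genes were called, and 3 of the 16 had an unadjusted p under 0.05. At T30 Sult1a1 was higher (0.47), and Gstt2 (-0.67), Gstm4 (-0.47) and Gstp1 (-0.20) were lower, 4 of 16 against 32.4% of cortex genes. At T36 Gsta3 (-0.55), Gstp1 (-0.22) and Gsto1 (-0.21) were lower, 3 of 16 against 12.5%. The difference between the tissues was not tested, and Ugt2b37, Ugt2b38, Sult1c2 and Sult2a7 are not among the cortex genes listed.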

How the data were processed

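Per the labels' protocols, liver RNA was taken with a miRNeasy kit and made into stranded libraries of polyadenylated RNA with a TruSeq kit, and read from 1 end on a HiSeq 4000. The tools named in the submitters' processing notes are fastp, STAR 2.7.0e and edgeR, with the builds mm10 and GRCm38. The authors deposited log2 CPM values, 1 table per tissue, and the 2 tables were never tested together. No value column was without a sample (0). The liver table has 13373 entries, of which 35 without a gene name (0.0337% of the signal) were left out. Antilog sums per library ran from 919743 to 1070244. Read counts and depth per library are not recorded in the values, so counting limits are unknown.

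All 62 liver libraries entered 1 limma 3.58.1 fit (R 4.3.3, eBayes with mean trend) of 17 groups with the label batch and an unlabelled factor of 3 levels as covariates (42 residual degrees of freedom). The factor's 2 dimensions are absent from the deposited values, which shows an adjustment before deposit, and libraries in its smaller levels number 8 and 4. A group wholly within 1 level cannot be placed from the values and was taken as reference. Fitted changes include the covariates and so differ from differences of group means. Tests were two-sided, Benjamini-Hochberg adjusted over 13338 genes within a comparison, at 0.05 with no fold limit, pseudocount or filter. Replicates are separate mice, and no pair of the 97 replicate pairs was a copy (root mean square difference 0.329 to 0.601).

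Named are the 8 widest daily ranges among called members, up to 6 called members per direction at each deprived time, the 2 highest levels per kb in each subfamily and up to 4 genes per pathway list by smallest p. Some genes of the pathway lists are not reported here. Ugt2b35, Gstm5, Gstm7, Gstt3, Sult1b1 and other members outside this rule were named after their values were seen. The members and lists were chosen with earlier results of these data known. Alternatives were other covariates, same-batch controls, the 2 groups alone, centring, quantile normalisation, log2(CPM + 1), leaving out the lowest 20% of genes, robust variances and leaving out each library. The fit was tested on simulated data. Gene positions and shared transcript windows of 50 bases came from GENCODE M21 (GRCm38). Promoters came from RefSeq (GRCm38.p6), where 38 of 44 members matched by symbol. Alignments used Biopython 1.88.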

Additional observations from a re-analysis of the deposited data

Results flagged for a closer look

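Among control groups of 5 to 8 libraries, a library was marked where its gap to the nearest other library took up more of the group's range than Dixon's 95% critical value allows. For the named members this was tested in 112 groups and marked 9 (8.04%), where chance marks about 1 in 20. Of these marks, 4 fell on the ZT0 control T0N3, which was low for Gstt2 (4.07 log2 CPM, next 4.70), Gsta2 (2.78, next 4.38), Gsta4 (5.06, next 5.58) and Ugt1a9 (4.01, next 5.19). Gstm1 was high in the ZT6 control T6N3 (11.17, next 10.44). Gstp3 was high in the ZT0 control T0N9 (3.93, next 3.37) and Sult2a8 in the ZT12 control T12N1 (9.99, next 9.83). In the ZT18 controls, Ugt1a1 was high in T18N3 (7.60, next 7.02) and Ugt2b1 in T18N8 (10.44, next 10.06).

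The change of Gstm4 differed between T36 and T30 by 0.67, and that of Sult1c2 by 1.11, by the interaction test in limma.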

How the results depend on the processing

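No paired analysis was possible because the groups compared hold different mice. At T30 the alternatives other than leaving out libraries called 10 to 15 members, against 11, and leaving out single libraries gave 8 to 12. Of those 11 calls, 7 passed the threshold in every alternative and every left-out library (Ugt2b37, Ugt2b38, Sult2a7, Sult1c2, Gstt2, Gstm4 and Gsta3) and 4 did not (Ugt1a10, Gsta2, Gsta4 and Ugt2b35, the last also lost with the 2 groups alone). Sult2a7, Ugt1a10 and Gstp2 are among the lowest 20% of genes and have no value where those were left out. At T27 quantile normalisation called 1 member, against 0. At T36, with 2 called, quantile normalisation called 1, while robust variances and the 2 groups alone called 0, and leaving out single libraries gave 0 to 2. For the difference between T36 and T30, with 2 called, the label batch alone and no covariate each called 4, and leaving out single libraries gave 0 to 3. Over the day 25 to 28 members were called without single libraries, against 27, and over any deprived time 6 to 13, against 10. Batch 1 controls alone called 19 of the 44 members over the day, and 16 of the 27 passed in all alternatives run for them. The share of all genes called was not recorded for the alternatives or the left-out libraries. Whether the members were called more often than all genes there, over the day or at T30, was therefore not tested. None of the 1544 values compared was marked as reversed. Counts of members and daily ranges have no sign and could not be, so this speaks only for the changes called at T30, at T36 and between them. The causes were not tested. Depth is unknown, so how far counting error limits scarce members such as Ugt1a10, Sult2a7 and Ugt2b37 cannot be stated.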
